A study of Mus musculus with 8 samples.

Results

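The genes described are 42 type I interferon-stimulated genes, of the 17921 genes with counts in single-cell RNA sequencing of mouse lung grafts. They were chosen by name, as genes that are known to be induced by type I interferon, and not by a cutoff on their measured values. Earlier results of these data were known when they were chosen. All 42 had counts. They were read as a sum and gene by gene, in each cell type and each mouse. B6 mice were the recipients of an orthotopic left lung transplant (LTx), and the grafts were taken 1 month later, with no immunosuppression. In the B6→B6 group (syngeneic, n = 5) the donors were male C57BL/6 (B6) mice as well. In the HLA→B6 group (n = 3) the donors were male B6 mice that carried the human transgene Tg(HLA-A2.1)1Enge, a model of bronchiolitis obliterans syndrome (BOS). Each mouse gave 1 library, with 10000 cells loaded per library. As graft cells and recipient cells were dissociated together, the cells of donor and recipient cannot be told apart from the labels.

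Type I interferons bind a receptor made of IFNAR1 and IFNAR2, and the signal runs through JAK1 and TYK2 to a complex that holds STAT2 and IRF9 and binds the interferon-stimulated response element (ISRE) before its target genes. Type II interferon (IFN-γ) uses another receptor and acts mainly through the gamma-activated site (GAS), and the sets of genes that the types induce overlap. The 42 genes hold transcription factors of the pathway itself (Irf7, Irf9, Stat2), the ubiquitin-like protein Isg15 with the ligase Herc6 and the protease Usp18, the RNA-binding IFIT proteins, the oligoadenylate synthetases and the exonuclease Isg20, sensors of foreign nucleic acid (Ifih1, Ddx58, Dhx58, Ddx60, Zbp1, Eif2ak2, Ifi203, Ifi204), membrane proteins that hinder virus entry or release (Ifitm3, Bst2, Ly6e), blocks of virus replication (Mx1, Rsad2, Cmpk2) and other targets such as the Schlafen genes.

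The ISRE core was searched in the RefSeq promoter of each gene on GRCm38.p6, the 250 bases before to 50 bases after its start. The core was taken as GAAANNGAAA, or TTTCNNTTTC on the other strand. It lay in the promoter of 19 of the 32 genes that had an entry (59.4%), against 1079 of all 27025 promoters (3.99%). The GAS core, TTCNNNGAA on either strand, lay in 7 of the 32 (21.9%) and in 2582 of all promoters (9.55%). Usp18, Oas2, Dhx58, Zbp1, Ifi204, Ly6e, Rtp4, Mx1, Ifi27l2a and Parp14 had no entry. The sequences shown belong to genes whose transcripts differed between the groups in the comparisons that follow, plus Ifit3b, and are given on the strand of the gene, with capitals for the bases that match the core. The 250 bases before the start of Isg15 (chr4:156200819-156201068, minus strand) held 3 overlapping matches in a single run.
Isg15: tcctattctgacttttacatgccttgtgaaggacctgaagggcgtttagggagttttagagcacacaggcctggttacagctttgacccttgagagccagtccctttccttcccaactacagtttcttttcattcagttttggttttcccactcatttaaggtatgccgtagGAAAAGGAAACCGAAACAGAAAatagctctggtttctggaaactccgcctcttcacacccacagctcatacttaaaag
The remaining windows of 30 bases were at chr1:173942508-173942537 (minus strand, in an intron of the GENCODE vM21 model of Ifi203), chr8:71537583-71537612 (minus strand, before Bst2, with 2 overlapping matches), chr11:82951937-82951966 (plus strand, in an intron of the GENCODE model of Slfn5), chr11:83020839-83020868 (minus strand, before Slfn8), chr19:34583363-34583392 (plus strand, before Ifit3) and chr19:34607759-34607788 (plus strand, before Ifit3b).
Ifi203: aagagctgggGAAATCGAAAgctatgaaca
Bst2: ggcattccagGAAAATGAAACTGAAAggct
Slfn5: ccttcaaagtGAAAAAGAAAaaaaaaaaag
Slfn8: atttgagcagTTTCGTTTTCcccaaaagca
Ifit3: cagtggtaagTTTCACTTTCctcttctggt
Ifit3b: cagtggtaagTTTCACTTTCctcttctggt
The windows of Ifit3 and its neighbour Ifit3b are identical, and reads of such close copies may be split or lost in counting. The same holds for Phf11b and Phf11d, the Schlafen genes, Ifi203 and Ifi204, and the Oas genes, so their single values are less certain. The match before Slfn5 runs into a stretch of A. A match is a run of letters and not a measured binding site.

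The table held 20778 cells, 9697 of B6→B6 and 11081 of HLA→B6 grafts. Libraries had 868 to 6544 cells and 1669076 to 12445769 UMIs, with a median of 1356 to 1948 UMIs per cell, so most transcripts of a moderate level were missed in most single cells. Levels were therefore read from counts summed over the cells of a type in 1 mouse, as CPM (UMIs scaled to a total of 1000000). The 3′ kit counts transcript ends, so levels of different genes could be compared without a correction for length. The libraries of B6→B6 replicates 1, 2 and 3 and of HLA→B6 replicate 2 shared cell barcodes beyond the rate of the others. Up to 160 barcodes were shared by a pair of them (B6→B6 replicate 2 and HLA→B6 replicate 2, 11.9% of the smaller library). Comparisons were repeated within and without this set. Labels were checked against marker genes. Cells labelled leukocytes held neutrophil markers at a summed 133410 to 225754 CPM over all mice. In structural cells 71795 to 737189 CPM came from erythrocyte transcripts. Structural clusters 1 and 2 carry the deposited label of epithelial cells, but endothelial markers summed to 6653 to 17237 CPM there. Epithelial markers (Epcam, Krt8, Krt18, Cdh1) summed to 0 to 64.1 CPM. The study reports Scgb1a1 and Sftpc in these clusters, and neither is among those epithelial markers. Both clusters are called by their number.

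The 42 genes took 241105 UMIs, 0.551% of the 43747478 UMIs in the table. Among the 8 types with at least 10 cells in every B6→B6 mouse, their summed level was highest in monocytes and lowest in NK cells of these mice. It was 12289 ± 1221 CPM in monocytes (mean ± SD, n = 5), 6673 ± 2292 in structural cells, 4890 ± 1500 in leukocytes, 4250 ± 319 in B cells, 3531 ± 519 in myeloid cells, 2650 ± 237 in T cells, 1751 ± 1121 in alveolar macrophages and 1312 ± 146 in NK cells. Monocytes were above structural cells in every B6→B6 mouse, whereas all further neighbours in this order overlapped in their range over mice. Mast cells had 4998 ± 1500 CPM in the 2 B6→B6 mice with at least 10 cells and 7068 CPM in 1 HLA→B6 mouse. Plasma cells had 1177 ± 14.4 CPM in 2 HLA→B6 mice, below the NK cells of that group (1544 ± 85.5 CPM, n = 3), and too few cells in each B6→B6 mouse.

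A few genes made up most of this sum. The top 5 held between 61.7% (NK cells) and 85.7% (B cells) of the UMIs of the 42 genes. Ly6e, which encodes a GPI-anchored surface protein, led in all types except monocytes and leukocytes, with a pooled 3248 CPM in structural cells, 2870 in B cells, 2300 in mast cells, 1539 in myeloid cells, 1256 in T cells, 1007 in type 2 pneumocytes, 894 in alveolar macrophages, 587 in plasma cells and 488 in NK cells. Ifitm3, whose product hinders fusion of viruses in endosomes, led in monocytes (6432 CPM) and leukocytes (2025 CPM) and was second in structural cells (2599 CPM). Ifi27l2a, a mitochondrial protein gene, stood at 1604 CPM in monocytes, 904 in leukocytes, 507 in T cells and 384 in B cells. The lymphocytes had Ifi203, of the PYHIN family of DNA-binding proteins, among their top genes, at 211 CPM in T cells, 287 in B cells and 153 in NK cells. Bst2, the virus tether, reached 615 CPM in structural cells, 407 in myeloid cells and 300 in alveolar macrophages. Lgals3bp, a secreted galectin-binding glycoprotein, was second in alveolar macrophages (472 CPM), and Isg15 (256 CPM) and Rtp4 (249 CPM) were among the top of leukocytes. At the other end, Ifit2 (221 UMIs), Oasl1 (177 UMIs) and Mx1 (154 UMIs in all cells) were too sparse for any comparison, which left 39 genes tested in at least 1 type.

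**Figure D1:**
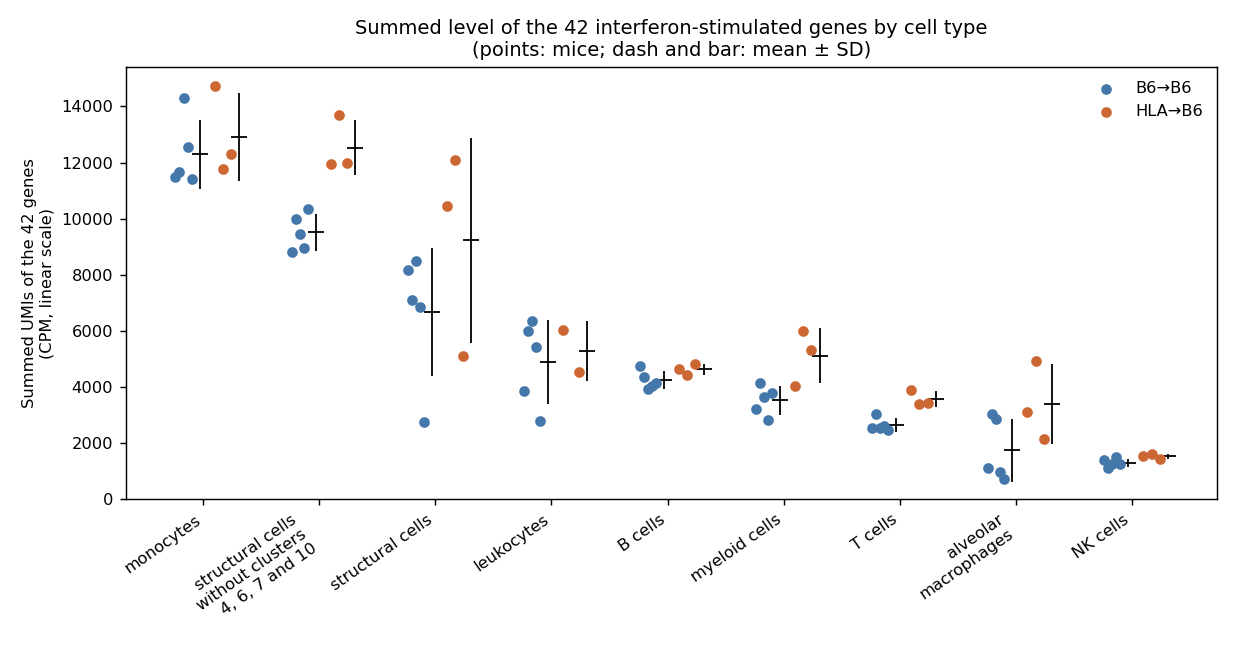
Summed level of the 42 genes (CPM, linear scale) by cell type. Each point is a mouse, and the dash with its bar is the mean ± SD. The groups separate in T cells and in structural cells without clusters 4, 6, 7 and 10, and overlap in the other types.

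Against B6→B6, the summed level in HLA→B6 grafts did not overlap in T cells. Replicates 1 to 5 of B6→B6 had 2544, 3062, 2545, 2626 and 2472 CPM, and replicates 1 to 3 of HLA→B6 had 3894, 3413 and 3423 CPM. B6→B6 replicate 4 had most of its 1470 T cells in cluster 7, which holds cells of no other mouse; over its 516 other T cells the sum was 2937 CPM, still below all HLA→B6 mice. In structural cells the HLA→B6 mice stood at 10470, 12089 and 5121 CPM and the B6→B6 mice at 8158, 7099, 8501, 6841 and 2767 CPM, so the groups overlapped. Structural clusters 4, 6, 7 and 10 hold the cells with labels of red blood cells, T cells, a small epithelial group and B cells. Without them, the level was 8824, 9998, 9441, 8968 and 10364 CPM in B6→B6 and 11949, 13679 and 11977 CPM in HLA→B6 mice, with no overlap. Means in the other types were 12927 ± 1571 CPM in monocytes, 5128 ± 990 in myeloid cells, 4642 ± 196 in B cells, 3398 ± 1412 in alveolar macrophages and again 1544 in NK cells of HLA→B6 mice (n = 3), and 5288 ± 1074 in leukocytes (n = 2). All of these had at least 1 HLA→B6 mouse within the B6→B6 range. The sums follow the most abundant genes. When all genes counted alike, as the mean of log2(CPM + 1), T cells still did not overlap. B cells (3.20 to 3.56 in B6→B6 and 3.88 to 4.16 in HLA→B6 mice) and myeloid cells (3.27 to 4.49 and 4.61 to 5.70) did not overlap either, nor did structural cells without clusters 4, 6, 7 and 10 (4.91 ± 0.25 and 5.97 ± 0.22). In this mean a gene with no UMI enters as 0, so it moves with depth too.

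Gene by gene, 8 of the 42 were higher in cells labelled alveolar macrophages of HLA→B6 grafts, 3 in structural cells, and none was lower in any type (edgeR's quasi-likelihood test, Benjamini-Hochberg adjusted over all genes tested in a type, threshold 0.05). The 8 were Slfn5, Slfn8, Oasl2, Lgals3bp, Ifi203, Isg15, Xaf1 and Ly6e. The 3 were Zbp1, Oas2 and Ifit3. No member passed in T cells, B cells, NK cells, monocytes, myeloid cells or leukocytes. A gene entered a fit only with enough counts, so between 7 (leukocytes) and 36 (structural cells) of the 42 were tested.

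**Figure D2:**
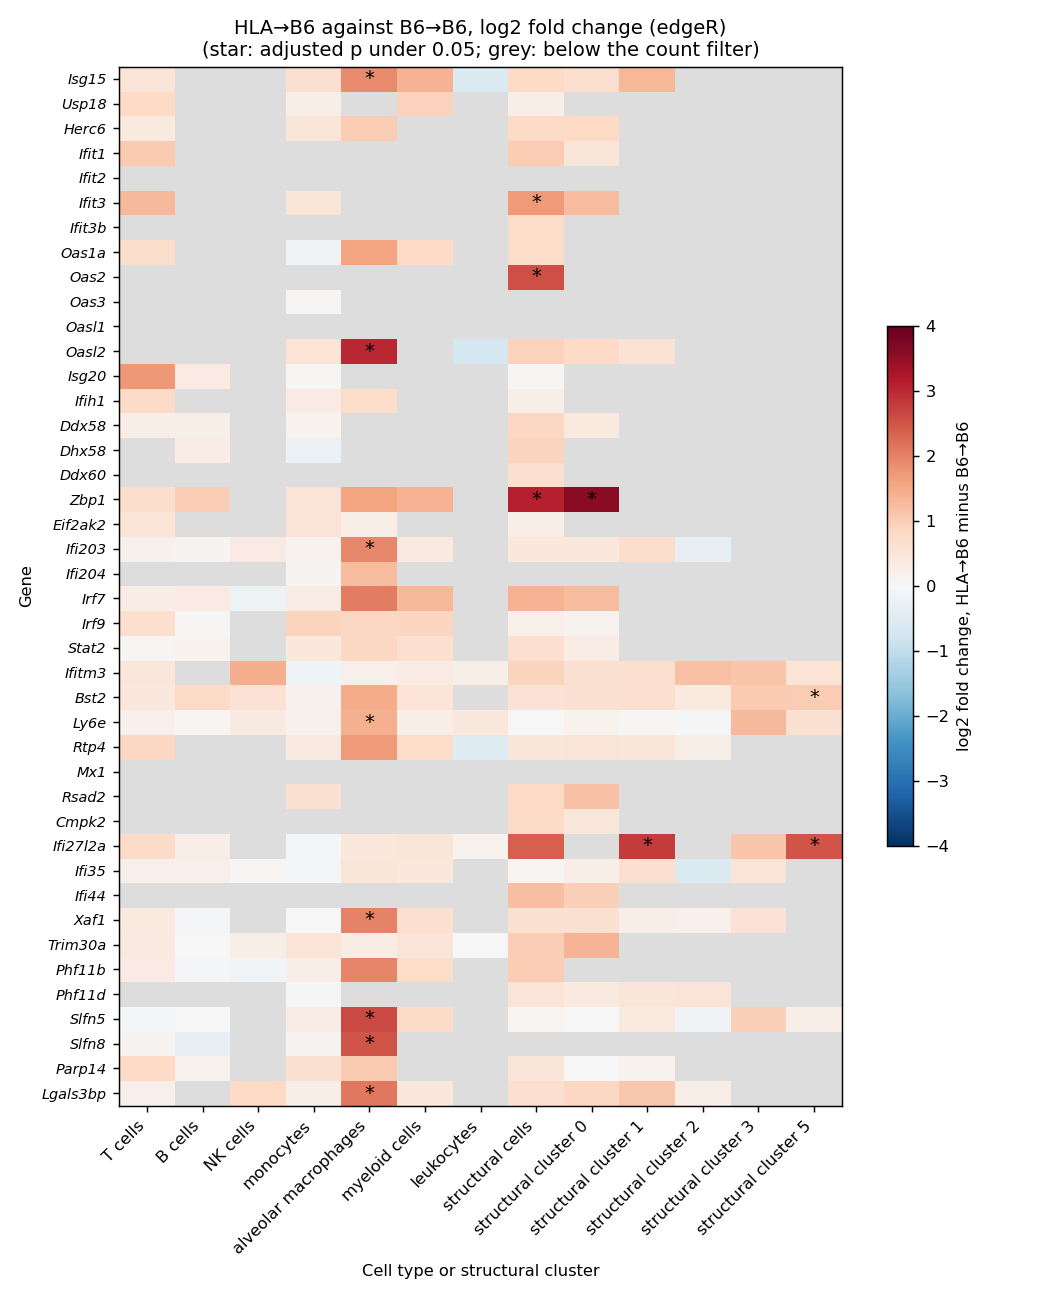
Log2 fold change of each gene, HLA→B6 minus B6→B6, by edgeR in each cell type and in 5 structural clusters. Red is higher in HLA→B6, blue lower, grey below the count filter, and a star marks an adjusted p under 0.05. All stars are on red, and 8 are in alveolar macrophages.

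In cells labelled alveolar macrophages, the airspace macrophages of the lung, 25 of the 42 genes were tested and 8 were higher in HLA→B6, beside 6.36% of all 5798 genes tested, and 343 genes were lower. All 25 had a log2 fold change above 0, with a median of 1.48 against -0.03 over all genes. Many passed the filter only through the HLA→B6 counts, which favours high values. The 11 that would pass in B6→B6 mice alone had a median of 0.84, and 3 of them were among the 8. With no filter, 41 of the 42 lay above 0, beside 51.1% of all genes. The label itself differed between the groups. Alveolar macrophage markers (Chil3, Ear1, Ear2, Plet1, Siglecf, Mrc1) summed to 10272 to 12807 CPM in B6→B6 and 343 to 4666 CPM in HLA→B6 mice, lowest in HLA→B6 replicate 2. Ear1 (log2 fold change -3.23) and Siglecf (-1.95) were lower and the monocyte markers Ly6c2 (3.67) and Fcgr4 (1.36) higher in HLA→B6 (adjusted p under 0.05, edgeR). The part of this shift in the values that follow was not tested beyond keeping marked cells, in which Ear1 still differed.

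The Schlafen genes Slfn5 and Slfn8 belong to a family that regulates growth of immune cells and restricts viruses. Slfn5 had 3.23, 21.4, 17.6, 3.14 and 21.7 CPM (TMM-normalized, B6→B6 replicates 1 to 5) and 54.1, 76.1 and 84.4 CPM (HLA→B6 replicates 1 to 3). Every HLA→B6 mouse was above every B6→B6 mouse, and the log2 fold change was 2.63 ± 0.50 (SE, adjusted p = 0.0114, edgeR). Slfn8 had 3.23, 15.0, 3.92, 3.14 and 0 CPM against 25.1, 27.9 and 28.1 CPM. The groups did not overlap here either, and the log2 fold change was 2.52 ± 0.52 (adjusted p = 0.0146, edgeR). Oasl2, an oligoadenylate synthetase-like protein, had 3.23, 17.1, 17.6, 0.449 and 7.24 CPM against 41.5, 73.0 and 53.1 CPM. Its rise was the steepest of the 8, with no overlap and a log2 fold change of 3.01 ± 0.65 (adjusted p = 0.0175, edgeR).

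Ifi203 had 22.6, 27.9, 33.3, 7.18 and 2.41 CPM in B6→B6 and 54.1, 70.3 and 62.5 CPM in HLA→B6 mice. It too separated the groups (log2 fold change 1.92 ± 0.48, adjusted p = 0.0278, edgeR). The other 4 genes overlapped, since HLA→B6 replicate 3 stood within the range of B6→B6 mice. Lgals3bp had 123, 279, 129, 89.7 and 77.2 CPM against 403, 1126 and 250 CPM. Its log2 fold change was 2.12 ± 0.48 (adjusted p = 0.0202, edgeR), with the value of HLA→B6 replicate 2 far above the rest. Isg15 had 9.68, 42.9, 19.6, 6.28 and 14.5 CPM against 61.9, 79.8 and 28.1 CPM. It rose by a log2 fold change of 1.89 ± 0.50 (adjusted p = 0.0346, edgeR), and HLA→B6 replicate 3 was below B6→B6 replicate 2. At 1000 UMIs per cell Isg15 was seen in a mean 1.13% and 4.01% of these cells in B6→B6 and HLA→B6 mice. In the red blood cell cluster it was seen in 4.62% and 5.42%, but in B cells in a mean of only 0.487% and 1.33%. The level of that cluster is thus not shared by all types, and whether this rise is expression by the labelled cells was not tested. Xaf1, which binds the apoptosis inhibitor XIAP, had 9.68, 23.6, 7.83, 4.93 and 0 CPM against 28.2, 40.7 and 21.9 CPM, a log2 fold change of 1.97 ± 0.55 (adjusted p = 0.0387, edgeR). Ly6e had 332, 784, 562, 318 and 195 CPM against 1045, 1762 and 709 CPM, a log2 fold change of 1.42 ± 0.40 (adjusted p = 0.0412, edgeR). In both, B6→B6 replicate 2 was the highest of its group.

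**Figure D3:**
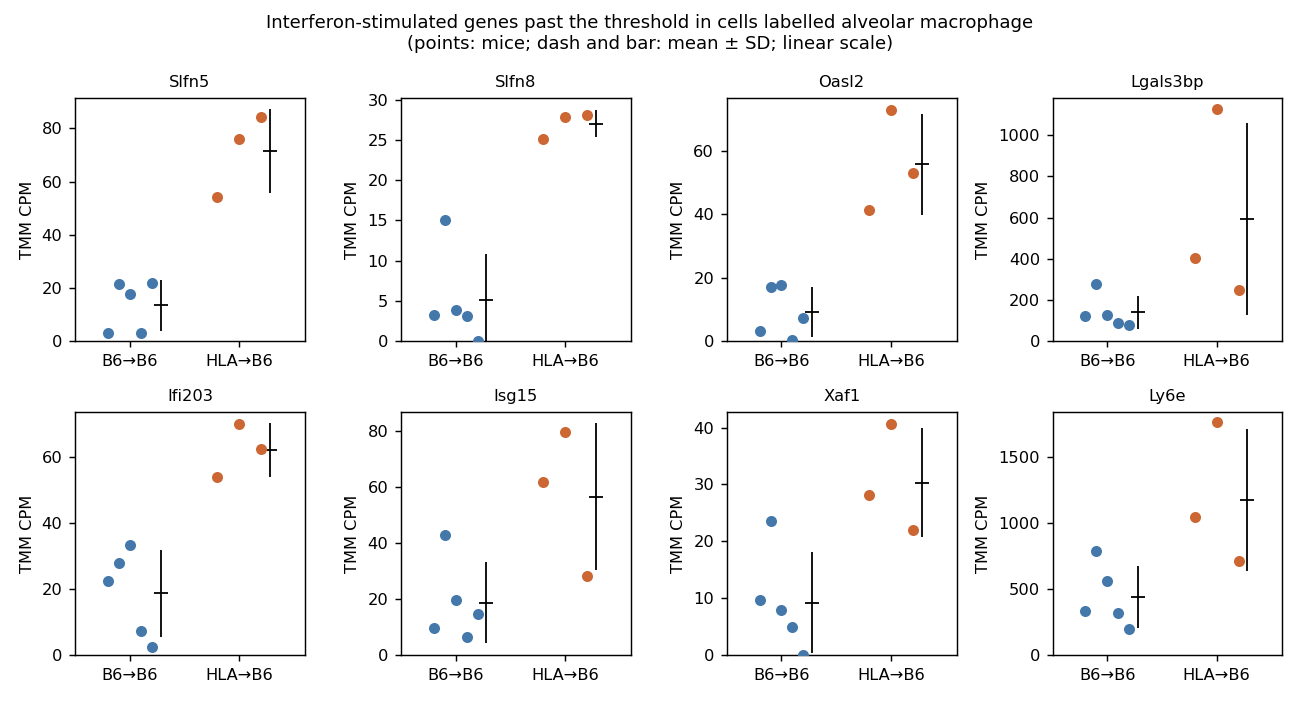
TMM-normalized CPM (linear scale) of the 8 genes past the threshold in cells labelled alveolar macrophages, with 1 point per mouse and the mean ± SD beside them. Slfn5, Slfn8, Oasl2 and Ifi203 show a gap between the groups, and in the other 4 genes the lowest HLA→B6 mouse lies within the B6→B6 range. Isg15 was on average seen in fewer of these cells than of red blood cells at equal depth, as it was in T cells and B cells.

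In all, 7 of the 25 had every HLA→B6 mouse above every B6→B6 mouse, beside 9.11% of all genes. Besides Slfn5, Slfn8, Oasl2 and Ifi203 these were Herc6 (log2 fold change 1.00, adjusted p = 0.0851), Parp14 (1.05, 0.0619) and Stat2 (0.82, 0.0904), none past the threshold (edgeR). Irf7 (log2 fold change 2.04, adjusted p = 0.0852), Zbp1 (1.59, 0.0713) and Bst2 (1.48, 0.0573) did not pass in these cells (edgeR). Ifi27l2a (0.43, 0.717) and Ifitm3 (0.19, 0.927) did not pass either (edgeR). The count depended on the mice. Without HLA→B6 replicate 2, Slfn5 alone of the 42 remained past the threshold (log2 fold change 2.54, adjusted p = 0.0417, edgeR). It was 3, 14, 5 and 2 without B6→B6 replicates 1, 2, 3 and 4 in turn, and 5 without HLA→B6 replicate 1. Slfn5 passed in all 8 of these fits. Within the libraries that share barcodes the 8 genes differed by 1.32 to 2.77 on the log2 scale, and within the other libraries by 1.78 to 3.80. HLA→B6 replicate 2 is the only HLA→B6 mouse of the first set, so the first range rests on it.

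Cells were then kept only if they held at least 3 UMIs of alveolar macrophage markers and none of the monocyte genes Ly6c2 and Ccr2, a choice made after seeing the data. They were 58.5%, 44.0%, 76.8%, 94.5% and 93.3% of the labelled cells in the 5 B6→B6 mice, and 48.7%, 12.5% and 28.5% in the 3 HLA→B6 mice. In these marked cells the 42 genes summed to 615, 2104, 1481, 845 and 695 CPM in B6→B6 and 2630, 4022 and 2082 CPM in HLA→B6 mice. HLA→B6 replicate 3 stood just below B6→B6 replicate 2, and replicates 1 and 2 exceeded the whole B6→B6 range. In the remaining labelled cells the sums overlapped widely, at 4151, 5359, 6759, 2841 and 3158 CPM against 3454, 5054 and 2206 CPM. Of 17 of the genes tested in the marked cells, 8 were higher in HLA→B6, beside 4.97% of 5111 genes. Of these 17, 8 would pass the filter in B6→B6 mice alone (median log2 fold change 1.23), and among them Bst2, Lgals3bp and Ly6e were higher. The other 5 were tested only through the HLA→B6 counts. Oasl2 (log2 fold change 4.17, adjusted p = 0.00300), Xaf1 (3.34, 0.00239), Ifi203 (3.27, 0.00171), Lgals3bp (2.66, 0.00213) and Ly6e (1.63, 0.0121) passed in both sets of cells. Rtp4, a chaperone of membrane receptors (2.84, 0.00239), Bst2 (2.00, 0.00769) and Zbp1 (1.76, 0.0399) passed here only (edgeR). Isg15, Slfn5 and Slfn8 had too few counts in them to be tested. The marked cells were still not alike between the groups. Ear1 was at 811 ± 47.2 CPM in B6→B6 and 162 ± 137 CPM in HLA→B6 mice (log2 fold change -2.29, adjusted p = 0.0103, edgeR). Siglecf did not pass (-0.58, 0.371, edgeR).

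In structural cells, the endothelial, epithelial and stromal cells of the graft, 36 of the 42 genes were tested and 3 were higher in HLA→B6, beside 0.419% of all 8109 genes tested. Of the 31 that would pass the filter in B6→B6 mice alone 1 was higher, Ifit3, while Zbp1 and Oas2 were tested only through the HLA→B6 counts. The class was also made up differently. Cluster 0 was 27.4% of the structural cells in B6→B6 (6.24% to 63.2% over mice) and 55.2% in HLA→B6 grafts (25.3% to 61.3%), and cluster 2 was 17.9% (10.5% to 24.9%) and 2.96% (0.701% to 7.47%). Zbp1 encodes a sensor of Z-form nucleic acids that can start necroptosis. It had 3.13, 7.03, 5.08, 7.08 and 14.5 CPM in B6→B6 and 53.2, 68.7 and 31.8 CPM in HLA→B6 mice, so the lowest HLA→B6 mouse was above the highest B6→B6 mouse. The log2 fold change was 3.10 ± 0.33 (adjusted p = 0.00428, edgeR). It held in each of the 8 fits that left out 1 mouse, with adjusted p between 0.00151 and 0.0406 (edgeR). Oas2, whose product makes the activator of RNase L, had 12.5, 3.52, 6.99, 3.31 and 0 CPM against 30.2, 49.2 and 27.8 CPM. The groups were apart, with a log2 fold change of 2.59 ± 0.42 (adjusted p = 0.0213, edgeR). Ifit3, an RNA-binding protein with tetratricopeptide repeats, had 26.6, 17.6, 18.4, 18.4 and 7.24 CPM against 64.8, 84.0 and 31.8 CPM. Again no HLA→B6 mouse fell into the B6→B6 range, and the log2 fold change was 1.70 ± 0.30 (adjusted p = 0.0308, edgeR).

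Oas2 and Ifit3 lost the call without any of B6→B6 replicates 2, 3 or 4 or HLA→B6 replicates 1 or 2, which left 1 gene, Zbp1. Within the libraries that share barcodes the differences were 3.57 (Zbp1), 2.67 (Oas2) and 1.98 (Ifit3) on the log2 scale, and within the other libraries 1.92, 3.85 and 1.88. Again the first values rest on HLA→B6 replicate 2 alone. In all, 12 of the 36 genes had every HLA→B6 mouse above every B6→B6 mouse, beside 3.24% of all genes. The other 9 were Ifi27l2a (log2 fold change 2.40, adjusted p = 0.0703), Irf7 (1.38, 0.136), Phf11b (1.02, 0.272), Ifit1 (1.00, 0.0738), Ifitm3 (0.88, 0.0738), Cmpk2 (0.78, 0.249), Lgals3bp (0.67, 0.248), Xaf1 (0.61, 0.217) and Rtp4 (0.48, 0.367). None of these passed by edgeR, and DESeq2 passed Ifitm3 and Irf7 too. Isg15 (0.80, adjusted p = 0.628), Stat2 (0.67, 0.346) and Bst2 (0.57, 0.446) did not pass by edgeR, and Ly6e had the same level in both groups to within 0.01 on the log2 scale. The median over the 36 was 0.72, against a median of 0.67 for the 31 that would pass the filter in B6→B6 mice alone. With no filter, 42 of the 42 lay above 0, beside 52.3% of all genes.

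Without clusters 4, 6, 7 and 10, a choice made after seeing the data, 7 of 34 tested genes were higher in HLA→B6, beside 0.692% of 7654 genes. They were Zbp1 (log2 fold change 3.48, adjusted p = 0.00119), Oas2 (2.69, 0.00661), Ifi27l2a (2.64, 0.0156), Ifit3 (1.71, 0.0125), Ifit1 (1.02, 0.0448), Isg15 (1.02, 0.0371) and Ifitm3 (0.87, 0.0287) by edgeR. Zbp1, Oas2 and Ifi27l2a of these were tested only through the HLA→B6 counts. In single clusters the counts were smaller. Cluster 0, labelled MHC II+ endothelial cells, had endothelial markers in all mice (summed 10450 to 15470 CPM). Zbp1 there stood at 0, 25.4, 12.8, 14.6 and 0 CPM in B6→B6 and 104, 160 and 71.3 CPM in HLA→B6 mice. The groups were far apart, with a log2 fold change of 3.60 ± 0.52 (adjusted p = 0.000694, edgeR), and Zbp1 was 1 of 25 genes tested, beside 0.604% of all genes. It passed the filter only through the HLA→B6 mice, and none of the 17 genes that would pass in B6→B6 mice alone was called (edgeR). Ifitm3 (0.62, adjusted p = 0.469) and Rtp4 (0.52, 0.655) did not overlap either, which made 3 genes beside 2.91% of all genes, and did not pass by edgeR. The call of Zbp1 rests on few UMIs, since it fell below the filter without any of B6→B6 replicates 1 or 3 or HLA→B6 replicates 1 or 2, and no member passed then. Without B6→B6 replicate 4 the count was 2 and without HLA→B6 replicate 3 it was 4.

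In cluster 1 Ifi27l2a had 0, 0, 13.0, 36.8 and 0 CPM against 141, 345 and 155 CPM, with no overlap (log2 fold change 2.79 ± 0.50, adjusted p = 0.00947, edgeR). It too was tested only through the HLA→B6 counts, and none of the 9 genes that would pass in B6→B6 mice alone was called (edgeR). It was 1 of 14 genes tested, beside 0.937% of all genes, and 1 of 4 that did not overlap (with Ifi203, Ifitm3 and Rtp4), beside 3.96%. It did not pass without HLA→B6 replicate 2 (adjusted p = 0.140). Cluster 5, labelled Vcam1+ endothelial cells, was compared in 4 B6→B6 and 3 HLA→B6 mice, and 2 of 5 tested genes rose, beside 4.16% of all genes. These and Ifitm3 (0.54) and Ly6e (0.60) did not overlap, beside 11.5% of all genes. Bst2 had 738, 836, 783 and 894 CPM in B6→B6 replicates 1 to 4 and 1458, 1852 and 1842 CPM in HLA→B6 mice, so the groups were separate. Its log2 fold change was 1.03 ± 0.22 (adjusted p = 0.0147, edgeR). Ifi27l2a had 0, 55.7, 39.1 and 149 CPM against 413, 432 and 721 CPM, separate as well (log2 fold change 2.52 ± 0.59, adjusted p = 0.0204, edgeR), and was tested only through the HLA→B6 counts. Neither passed without HLA→B6 replicate 2. Leaving out B6→B6 replicate 1, 2 or 4 or HLA→B6 replicate 3 left 1 gene.

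**Figure D4:**
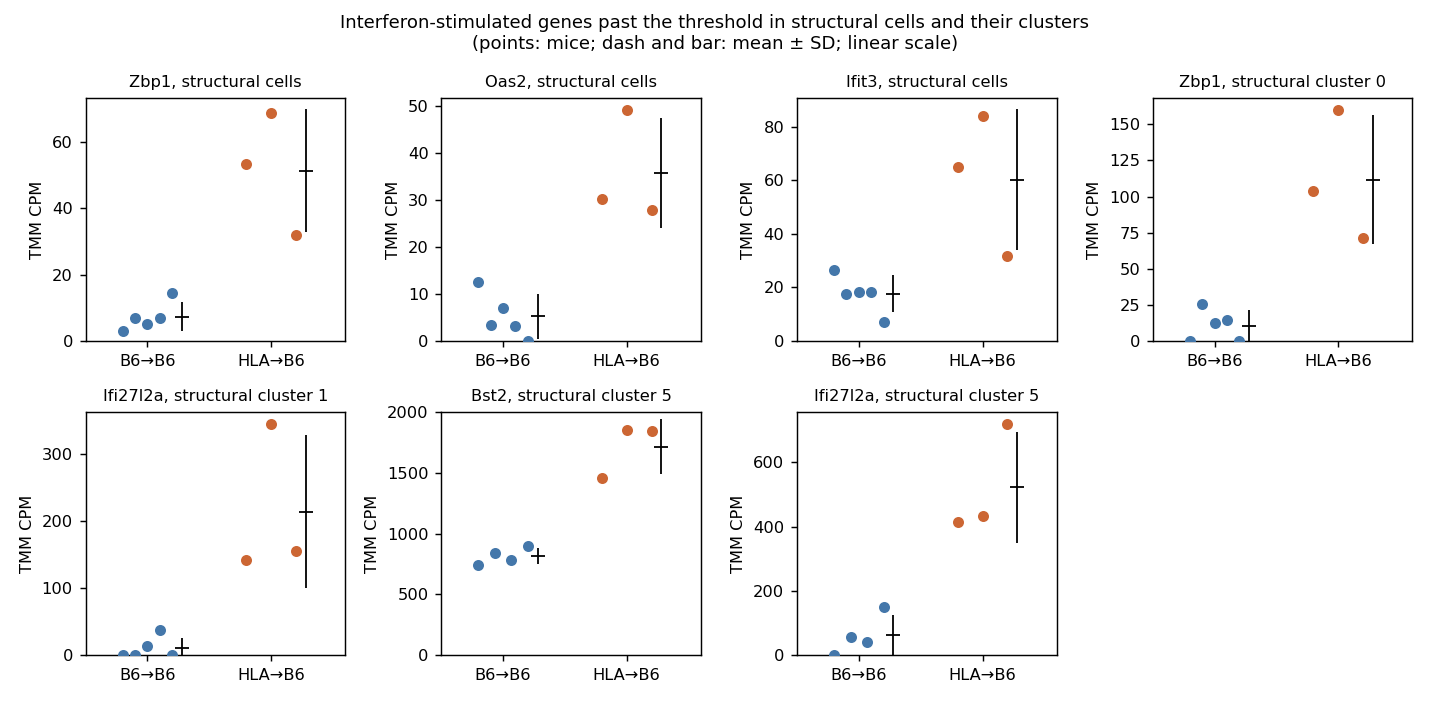
TMM-normalized CPM (linear scale) of the genes past the threshold in structural cells and in structural clusters 0, 1 and 5, with 1 point per mouse and the mean ± SD. In all 7 panels each HLA→B6 mouse is above each B6→B6 mouse.

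Cluster 3, labelled fibroblasts and smooth muscle cells, had 3 mice of each group. The sum of the 42 genes was 4375 ± 585 CPM in B6→B6 and 9626 ± 1690 CPM in HLA→B6 mice, with ranges of 3908 to 5030 and 8614 to 11578 CPM. Of 7 genes tested none passed by edgeR, beside 0.159% of all genes (0 by DESeq2). At an unadjusted p under 0.05, 4 were higher, beside 8.02% of all genes, and 5 did not overlap, beside 12.5%. These were Ly6e (log2 fold change 1.30), Ifi27l2a (1.12), Ifitm3 (1.11), Bst2 (1.04) and Slfn5 (0.95), at adjusted p of 0.159 to 0.392 (edgeR). Endothelial markers in this cluster also differed, at 2511 to 2734 CPM in B6→B6 and 3885 to 4993 CPM in HLA→B6 mice, and their part was not tested. In cluster 2 the sums were 9860 ± 1606 and 10563 ± 254 CPM, and none of 10 genes passed by edgeR (1 higher, beside 5.72% of all genes, and 1 lower at an unadjusted p under 0.05, 0 by DESeq2), beside 0.243% of all genes. None had every HLA→B6 mouse above every B6→B6 mouse, beside 4.08%, and Ifi35 (-0.56, adjusted p = 0.384, edgeR) had every one below. In cluster 5 the sums were 9761 ± 302 CPM (n = 4) and 15906 ± 2429 CPM, with no overlap. In cluster 1 they were 8822 ± 777 and 11279 ± 655 CPM (7526 to 9391 and 10566 to 11854), also with no overlap, and in cluster 0 11810 ± 1703 and 14421 ± 1263 CPM, where the groups overlapped.

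In T cells none of 28 tested genes passed by edgeR, beside 0.0698% of all 7164 genes, with 9 higher at an unadjusted p under 0.05 (beside 4.16% of all genes) and 2 by DESeq2. These 2 were Isg20 and Ifi27l2a. Isg20, a nuclease that degrades RNA, had 8.67, 22.0, 8.88, 16.9 and 12.3 CPM in B6→B6 and 37.8, 51.2 and 60.9 CPM in HLA→B6 mice. The groups did not overlap (log2 fold change 1.73 ± 0.30, adjusted p = 0.0643, edgeR). Without cluster 7 it passed (1.71, adjusted p = 0.0182, edgeR), as 1 of 28, beside 0.366% of genes, and was tested there only through the HLA→B6 counts. Ifi27l2a had 347, 408, 342, 383 and 396 CPM against 720, 536 and 677 CPM, also with no overlap (log2 fold change 0.78 ± 0.15, adjusted p = 0.0795, edgeR). Zbp1 (0.71, adjusted p = 0.302) and Ifit3 (1.29, 0.450) did not overlap either, which made 4 of 28 beside 3.59% of all genes. Without cluster 7, Ifi27l2a (0.54, adjusted p = 0.447, edgeR) and Ifit3 (0.97, 0.515) overlapped, which left 2 of 28 beside 3.60%. There 25 of 28 tested genes had a log2 fold change above 0, with a median of 0.25. The 22 that would pass the filter there in B6→B6 mice alone had a median of 0.21. With cluster 7 kept, 27 of the 28 had a log2 fold change above 0, with a median of 0.43 against -0.02 over all genes. The 20 that would pass the filter in B6→B6 mice alone had a median of 0.34. Ifit1 (1.05, adjusted p = 0.653), Isg15 (0.50, 0.911), Ifitm3 (0.45, 0.978), Bst2 (0.41, 0.653), Irf7 (0.29, 0.902), Ly6e (0.18, 0.880) and Stat2 (0.05, 1.00) made no call by edgeR.

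In B cells none of 18 genes passed by edgeR (2 at an unadjusted p under 0.05, beside 2.65% of all genes, and 0 by DESeq2), beside 0.1000% of all genes. Bst2 did not overlap (77.6 ± 26.6 against 122 ± 9.10 CPM, log2 fold change 0.77, adjusted p = 0.730, edgeR), the 1 gene of the 18 to do so, beside 1.67% of all genes. In monocytes none of 33 passed (4 at an unadjusted p under 0.05, beside 2.90% of all genes, and 0 by DESeq2), beside 0% of all genes by edgeR. Irf9, the DNA-binding part of the STAT complex, had 42.7 ± 7.46 against 80.9 ± 13.7 CPM (log2 fold change 0.88, adjusted p = 0.312, edgeR). It and Ly6e (0.18) were the 2 that did not overlap, beside 2.00% of all genes. In myeloid cells, which held dendritic cell markers at 343 to 2514 CPM, none of 19 passed by edgeR (2 at an unadjusted p under 0.05, beside 3.37% of all genes, and 0 by DESeq2), beside 0% of all genes. All 19 had a log2 fold change above 0 with a median of 0.68, among them Isg15 (51.3 ± 33.2 against 120 ± 70.4 CPM, 1.40) and Irf7 (46.2 ± 16.0 against 100 ± 73.2 CPM, 1.32). Their adjusted p was 0.557 and 0.739 (edgeR), and in both the HLA→B6 mice spread widely. Ifi35 (0.41, adjusted p = 0.999, edgeR) was the 1 gene that did not overlap, beside 2.98% of all genes. In NK cells 9 and in leukocytes 7 genes were tested, with no call by edgeR, 0 at an unadjusted p under 0.05 (1.64% and 3.50% of all genes were higher at it) and 0 by DESeq2, beside 0% of all genes in both. No gene had every HLA→B6 mouse above every B6→B6 mouse, beside 1.74% of all genes in NK cells and 7.12% in leukocytes, and in leukocytes Isg15 (-0.55, adjusted p = 0.975, edgeR) had both HLA→B6 mice below.

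Whether a gene changed more in one type than in another was tested on differences within each mouse, each type against T cells (limma). No member passed, among 23 genes for alveolar macrophages, 27 for structural cells, 27 for monocytes and 17 for B cells, beside 0.552%, 0%, 0% and 0.0177% of all genes. At an unadjusted p under 0.05 there were 7, 2, 2 and 2, beside 14.8%, 4.65%, 5.27% and 3.74% of all genes (limma). The gap was 2.52 ± 0.65 on the log2 scale for Slfn5 in alveolar macrophages (adjusted p = 0.107, limma), with 2.33 for Slfn8 (0.178), 1.45 for Lgals3bp (0.152) and 1.31 for Ly6e (0.168). For Zbp1 in structural cells it was 1.92 ± 0.40 (adjusted p = 0.492, limma). A call in alveolar macrophages or structural cells and none in T cells is thus not shown to be a difference between these types.

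The share of cells with at least 1 UMI was read at 1000 UMIs per cell, since deeper cells show more. Zbp1 was found in 0.407% ± 0.262 of structural cells in B6→B6 (n = 5) and 5.90% ± 2.77 in HLA→B6 mice (n = 3), and without thinning in 1.02% and 7.58% at median depths of 1209 and 1033 UMIs. In T cells the shares were 5.33% ± 0.871 and 8.65% ± 1.19 (unthinned 7.96% and 15.2%, at 1492 and 1731 UMIs). Zbp1 was more often seen in T cells than in structural cells of syngeneic grafts. Isg15 was found in 6.60% ± 0.958 and 10.5% ± 1.56 of structural cells (unthinned 8.97% and 12.7%). In alveolar macrophages the shares of Isg15 were 1.13% ± 1.06 and 4.01% ± 2.18, and unthinned 2.25% and 16.7%, at median depths of 2599 and 4069 UMIs. Unthinned shares are pooled over all cells of a group, whereas thinned shares are means over mice. The HLA→B6 cells were deeper, and the parts of depth and of pooling in the wide unthinned gap were not tested. Structural cluster 4, with the label of red blood cells, was read beside these shares. Zbp1 was seen in 0 of its 156 cells in B6→B6, which allows a share of up to 1.92%, and in 1 of 166 cells in HLA→B6 grafts (0.602%), at median depths of 5052 and 5068 UMIs. Isg15 was seen there in 14.7% and 12.7% of cells, and at 1000 UMIs in 4.62% and 5.42%. The shares of Isg15 in alveolar macrophages at 1000 UMIs were below these. So were those in T cells (2.40% ± 1.82 and 3.75% ± 0.477) and B cells (0.487% ± 0.587 and 1.33% ± 1.06). Cluster 4 thus gives no level common to all types. How much of Isg15 in alveolar macrophages is expression by these cells was not tested, which limits its call there too.

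Genes that IFN-γ is known to induce were read beside the 42. In structural cells 12 of 22 tested of these 26 targets were higher in HLA→B6, beside the same 0.419% of all genes, with a median log2 fold change of 1.90. The chemokine Cxcl9 (3.78), the guanylate-binding proteins Gbp3 (2.84) and Gbp2 (2.27), the serpin Serpina3g (2.48) and the GTPases Iigp1 (2.31) and Tgtp1 (2.14) led. Cxcl9 had 7 UMIs in B6→B6 and 107 in HLA→B6 structural cells, so it was tested only through the HLA→B6 counts. How many other targets were tested in this way was not counted in any type, so their counts and medians may be raised. In alveolar macrophages 8 of 15 tested targets were higher (median 1.98), beside 6.36% of all genes. Gbp3 (3.29), Gbp2 (2.45), Irgm1 (2.25), the peptide transporter Tap1 (2.01), the MHC II activator Ciita (1.98) and Irf1 (1.37) led there. In clusters 0 and 1 the counts were 10 of 17 and 2 of 10 (Gbp2 2.17 and Tap1 1.92 in cluster 1), beside 0.604% and 0.937% of all genes. In cluster 3 Iigp1 (3.14) rose, 1 of 5, beside 0.159% of all genes. In cluster 5 Iigp1 (2.19) and Gbp2 (1.78) rose, 2 of 3, beside 4.16%. None passed by edgeR in T cells, B cells, NK cells, monocytes or myeloid cells, of 21, 15, 8, 12 and 13 tested, with 9, 7, 0, 6 and 10 higher at an unadjusted p under 0.05, beside 4.16%, 2.65%, 1.64%, 2.90% and 3.37% of all genes. The ISRE core lay in 10 of 18 promoters of these targets (55.6%), and the GAS core in 10 of 18 (55.6%), against the 59.4% and 21.9% of the 42 genes.

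**Figure D5:**
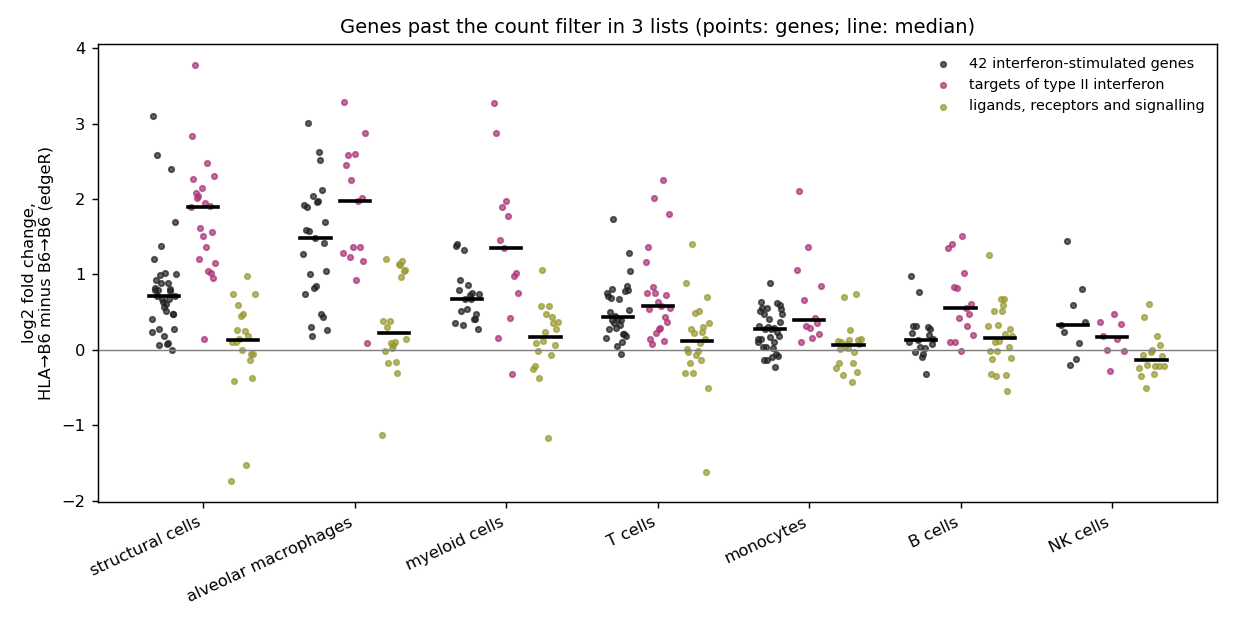
Log2 fold change (HLA→B6 minus B6→B6, edgeR) of the tested genes of 3 lists by cell type, with 1 point per gene and the median as a line. In structural cells the line of the type II targets (1.90) is above that of the 42 genes (0.72) and that of ligands, receptors and signalling genes (0.12). Genes tested only through the HLA→B6 counts are included, and their number among the type II targets was not counted.

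Of 50 ligand, receptor and signalling genes of the interferon pathways, 30 had counts. Of 18 type I ligands 1 (Ifnz) had counts, and the others, Ifnb1 included, were not analysed here. Ifng, which encodes IFN-γ, was at 22.4 ± 12.0 CPM in T cells of B6→B6 and 54.4 ± 23.2 CPM in T cells of HLA→B6 mice, and at 136 ± 37.6 and 101 ± 29.4 CPM in NK cells, and was called in neither. In alveolar macrophages 5 of 20 genes were higher and 1 lower in HLA→B6 (edgeR, beside 6.36% of all genes higher). Irf5 (log2 fold change 1.20), the receptor chains Ifnar2 (1.13), Ifngr2 (1.05) and Il10rb (0.97), and Tmem173, which encodes STING (1.06), were higher. Mavs, the adaptor of the RNA sensors Ddx58 and Ifih1, was lower (-1.13). In structural cells 0 of 20 were higher by edgeR (0 at an unadjusted p under 0.05), and Mavs was lower (-1.74, edgeR). Ifnar2 stood at 67.0 ± 3.83 and 123 ± 29.9 CPM in alveolar macrophages, 162 ± 10.8 and 149 ± 22.6 CPM in monocytes, 81.8 ± 29.0 and 92.1 ± 30.8 CPM in structural cells and 49.7 ± 10.6 and 58.3 ± 6.79 CPM in T cells of B6→B6 and HLA→B6 mice. Its mean was highest in monocytes, the type with the highest summed level of the 42 genes, but overlapped in range with that in leukocytes. The partner chain Ifnar1 did not follow the summed level. It had 27.6 ± 14.2 CPM in monocytes and 80.9 ± 28.9 CPM in NK cells of B6→B6 mice.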

How the data were processed

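Per the labels and the methods of the study, the authors aligned reads with Cell Ranger to mm10 (GRCm38), dropped barcodes under 200 UMIs and genes seen in under 3 cells, removed free RNA with SoupX, and named cells with Seurat clusters and clustifyr. Versions are not given in the sources used here. The deposited values are whole UMI counts per gene and cell, and 17 cells had fewer than 200 UMIs. Whether SoupX came before the deposited counts is not stated. Each cell took its mouse and type from the deposited table of cells. The cell names of the 3 HLA→B6 libraries carry the numbers 2, 3 and 5, whereas that table numbers these mice 1, 2 and 3, and the replicate numbers used here are those of the table.

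Counts were summed per mouse and type (at least 10 cells), normalized by TMM, filtered by filterByExpr (minimum count 10) and compared by edgeR 4.0.16's quasi-likelihood test, or limma 3.58.1 (prior count 2) for differences between types, in R 4.3.3. Mast cells had too few mice for a fit. Sums over the 42 genes used plain CPM. Scrublet (scanpy 1.11.5, Python 3.11.15, expected rate 0.06) marked 258 doublets (1.24%), which were left out only as an alternative, as were 793 cells that share a barcode with another mouse. Other alternatives were DESeq2 1.42.0, its size factors, no filter, the barcode set or the replicate number as a term, at least 20 cells or 500 UMIs, and each mouse left out. edgeR was tested on simulated data. The 42 genes, the other lists and the tests were chosen with earlier results of these data known. A further signalling gene is not reported here. The genes named are a fixed set of 10 (Isg15, Ifit1, Ifit3, Irf7, Stat2, Zbp1, Ifi27l2a, Ifitm3, Bst2, Ly6e), up to 5 with the largest change past the threshold per type, the top 5 by level, up to 6 called genes of the other lists, and those too sparse to test. Genes named beyond these, such as Isg20, Irf9, Ifi203 in alveolar macrophages and the genes whose groups did not overlap, were chosen after their values were seen.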

Additional observations from a re-analysis of the deposited data

Results flagged for a closer look

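Among 25 groups of 4 or 5 B6→B6 mice examined, 4 groups had 1 mouse far from the other 4 (Dixon's critical value 0.71 for 5 mice). By chance 1.25 would be expected at 1 in 20. T cells and structural cells entered both whole and without some clusters, so the groups are not all independent. B6→B6 replicate 2 was the highest for Slfn8 in alveolar macrophages (15.0 CPM), for Lgals3bp in alveolar macrophages (279 CPM) and for the summed level of the 42 genes in T cells (3062 CPM). B6→B6 replicate 5 was the lowest for the summed level in structural cells (2767 CPM), the mouse in which erythrocyte transcripts took 737189 CPM there. The part of these transcripts in that level was not tested beyond leaving out clusters 4, 6, 7 and 10, which brought it to 10364 CPM.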

How the results depend on the processing

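Of 202 alternative values for genes past the threshold, 153 kept the call, 49 lost it and 0 reversed. Of 1042 for named genes not past it, 40 reversed and 26 passed. Where not said, the cause was not tested. The number of genes past the threshold, 8 in alveolar macrophages, was 23 with no filter (more genes tested), 17 with the barcode set as a term, and 1 to 14 with 1 mouse left out. In structural cells, 3 became 5 by DESeq2, 6 with no filter, 7 without clusters 4, 6, 7 and 10, and 1 to 4 with 1 mouse left out. In T cells, 0 became 2 by DESeq2 or with no filter, 1 with the barcode set as a term or without cluster 7, and 0 to 2 with 1 mouse left out. With no filter it became 1 in B cells, 2 in myeloid cells, 5, 3, 2, 1 and 1 in clusters 0, 1, 2, 3 and 5. DESeq2 gave 0, 0 and 1 in clusters 0, 1 and 5. At least 20 cells gave 0, 1 and 0 in clusters 1, 2 and 5, removal of shared barcodes 0 in cluster 0 (Zbp1 fell below the filter), and the barcode set 1 in cluster 5. With 1 mouse left out, clusters 0, 1, 2 and 5 gave 0 to 4, 0 to 1, 0 to 1 and 0 to 3. The gene that did not overlap in myeloid cells was lost (0) with DESeq2's size factors. With genes weighted equally, as a mean of log2(CPM + 1), the difference between groups moved from 0.43 to 0.79 in T cells, 0.13 to 0.54 in B cells, 0.24 to 0.43 in NK cells, 0.07 to 0.55 in monocytes, 0.54 to 1.26 in myeloid cells and 0.11 to 0.67 in leukocytes, and from 0.47 to 0.97 in structural cells and 0.96 to 1.32 in alveolar macrophages, within the spread of mice there. B cells and myeloid cells no longer overlapped. At 500 UMIs per cell the gap in share of cells was 1.80 percentage points for Zbp1 in T cells, and 2.21 for Isg15 and 2.80 for Zbp1 in structural cells.

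Whether replicate numbers pair the mice was not settled: over 21 same-numbered pairs r was -0.25 to 0.31, with 5 above 0.1. By type, r was 0.04 to 0.31 for the replicate 2 pair, which shared 160 barcodes, and -0.25 to -0.07 for the replicate 3 pair. The correlations used deviations from group means, which offset each other within a group, so they cannot decide this. With the number as a replicate block, 4 genes passed in alveolar macrophages, 1 in structural cells (Zbp1, log2 fold change 3.19, adjusted p = 0.0401 by edgeR), 1 in T cells, and 2, 1 and 1 in clusters 0, 2 and 5. The block also reversed values near 0 on the log2 scale: Stat2 in B cells (-0.19), Ifi27l2a in monocytes (0.08), myeloid cells (-0.19) and leukocytes (-0.07), Ifitm3 in alveolar macrophages (-0.16), myeloid cells (-0.26) and leukocytes (-0.14), and Ly6e in structural cells (0.03) and cluster 2 (0.01). Removal of shared barcodes reversed Stat2 in T cells (-0.04) and Ly6e in cluster 1 (-0.04), and cells of 500 UMIs or removal of doublets Ly6e in structural cells (0.01 each). With 1 mouse left out, Stat2 ranged from -0.16 to 0.19 in T cells and -0.04 to 0.23 in B cells, Irf7 from -0.62 to 0.04 in NK cells, and Ifitm3 from -0.29 to 0.01 in monocytes, -0.44 to 1.40 in alveolar macrophages, -0.16 to 0.66 in myeloid cells and -0.39 to 0.67 in leukocytes. Ifi27l2a ranged from -0.22 to 0.07 in monocytes, -0.25 to 0.99 in myeloid cells and -0.09 to 0.54 in leukocytes, and Ly6e from -0.08 to 0.10 in structural cells and -0.01 to 0.27, -0.03 to 0.13 and -0.11 to 0.06 in clusters 0, 1 and 2. Leukocytes without HLA→B6 replicate 3 and cluster 3 without B6→B6 replicate 2 or 5 gave no new fit, since these mice had fewer than 10 such cells.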
